A study of Mus musculus with 12 samples.

Results

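The ribosomal protein genes encode the proteins of the cytoplasmic ribosome, and their mRNAs were followed here in the mouse eye through 24 h of darkness. Members were the entries of the deposited gene table named Rpl or Rps with a number and, for some, a closing letter (such as Rpl3, Rps15a, Rps4x and Rpl22l1), together with Rplp0, Rplp1, Rplp2 and Rpsa. Entries whose names mark them as pseudogenes (-ps) were left out. The rule gave 88 members of 32544 gene entries, 36 of the small subunit and 52 of the large subunit. All 88 were found by symbol in the GENCODE M21 annotation, where 83 are protein-coding and 5 (Rpl6l, Rps12l1, Rps3a2, Rps3a3 and Rps4l) are annotated as pseudogenes despite their names.

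The eyes came from male mice aged 12 weeks, either WT (Cre negative) or with a retina-specific deletion of Nr3c1 (cKO, Cre positive); the promoter that drives Cre is not named in the labels. Nr3c1 encodes the glucocorticoid receptor. Mice of both genotypes lived in 12 h light and 12 h dark for 2 weeks and were then kept in constant darkness, and their eyes were collected whole on day 2 of it, at circadian time (CT) 2, 6, 10, 14, 18 and 22. Each genotype and time had 1 library, made from RNA of 3 mice pooled in equal amounts, so 12 libraries were compared, 6 per genotype, with no measure of how single mice varied. Some labels name ciliary body as the tissue and a nonpigmented ciliary epithelial line as the source, while the protocols describe whole eyes. The defining markers of rods, lens, cornea, ciliary body, stroma, eye muscle and red blood cells were all detected, with none at 0.

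A ribosome holds a single copy of nearly every ribosomal protein, so the genes are generally expressed together and at high levels. In mammals their mRNAs begin with a run of pyrimidines (C or T), the 5′ terminal oligopyrimidine (TOP) tract, through which mTORC1 and the RNA-binding protein LARP1 set their translation. In mouse liver, ribosome production is known to follow the daily cycle of feeding and fasting. Mammalian genomes also hold many processed pseudogenes of these genes, which are DNA copies of their spliced mRNAs, and short reads from a gene and its copy can be hard to tell apart.

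The copies matter for reading the values below. A stretch each of Rps13 and Rps7 is shown beside its pseudogene, because the counts of these genes and of their copies are described together below. The lines give 60 bases of the coding sequence of each member and the matching bases of its pseudogene (GENCODE M21 transcripts, GRCm38), with the bases that differ in capitals. Positions count from 1 at the A of the start codon. The first pair covers bases 391 to 450 and the second covers bases 8 to 67.
Rps13: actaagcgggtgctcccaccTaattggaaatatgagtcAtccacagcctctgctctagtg
Rps13-ps1: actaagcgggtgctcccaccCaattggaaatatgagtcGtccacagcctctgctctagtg
Rps7: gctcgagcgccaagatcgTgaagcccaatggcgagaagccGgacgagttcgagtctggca
Gm6472: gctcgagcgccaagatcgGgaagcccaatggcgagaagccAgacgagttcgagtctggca

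Rps13 (ENSMUSG00000090862, chr7:116331505-116334195, minus strand) and Rps13-ps1 (chr8:87047689-87048226, plus strand) differ at 2 of 453 coding bases, T411C and A429G. Rps7 (ENSMUSG00000061477, chr12:28630854-28635953, minus strand) and the transcribed processed pseudogene Gm6472 (chrX:152909505-152910155, minus strand) differ at 3 of 582 coding bases, T26G, G48A and G123T. Rpl34 and Rpl34-ps1 differ at T132C and C318G. Gm15500 matches all 891 coding bases of Rpl5, and Gm10275 matches all 495 of Rpl12.

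The starts of the genes are shown because the TOP tract is known from these mRNAs and was not used by the naming rule. Each line runs from 30 bases before to 20 bases after the annotated start (RefSeq, GRCm38.p6), with the longest run of C and T in capitals. The longest run is shorter in Rplp0 than in Rpl4, Rps25 and Rps15a. In Rplp0 it lies after the annotated start, and in Rpl4, Rps25 and Rps15a it lies before it. The capitals therefore do not mark a TOP tract at the annotated first base of the mRNA. The windows of Rps13, Rps23 and Rps7 are not shown, and their longest runs were shorter than those of Rpl4, Rps25 and Rps15a.
Rplp0: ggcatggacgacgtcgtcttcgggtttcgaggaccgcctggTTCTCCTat
Rpl4: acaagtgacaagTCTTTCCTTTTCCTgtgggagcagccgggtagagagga
Rps25: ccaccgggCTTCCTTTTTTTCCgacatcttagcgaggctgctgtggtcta
Rps15a: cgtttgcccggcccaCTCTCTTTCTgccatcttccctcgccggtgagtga

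These windows lie at chr5:115559437-115559486 (plus), chr9:64173357-64173406 (plus), chr9:44407684-44407733 (plus) and chr7:118116128-118116177 (minus), in that order. A promoter was found for 63 of the 88 members. A run of 8 or more pyrimidines lay in this window in 47.6% of them, against 20% of 27025 promoters, and the median longest run was 7 bases against 5. A C at the start base followed by 4 pyrimidines was present in 19% of the members and 2.49% of all promoters. In the wider window from 250 bases before to 50 after the start, searched on both strands, the GABP motif CCGGAAG was present in 39.7% of members against 9.12%, the SP1 motif GGGCGG in 60.3% against 35.9%, and the YY1 motif AAGATGGC in 7.94% against 2.88%. The E-box CACGTG, to which the clock factors CLOCK and BMAL1 bind, was present in 7.94% of members, namely Rpl13a, Rpl14, Rpl19, Rpl23 and Rpl34, against 7.24% of all promoters. The full palindromic glucocorticoid response element was in none of the 63 and in 1 of the 27025. The motifs were sought as exact letters and may overlap, and a match only describes the letters.

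Library totals ran from 10466253 to 10686868 counts, so the depth was nearly equal. Nr3c1 itself ran from 55.3 to 76.0 CPM in WT and from 38.8 to 49.5 CPM in cKO, where CPM is counts scaled to the TMM-adjusted library size in the usual way. It fell by 0.52 ± 0.06 (log2, SE; edgeR quasi-likelihood adjusted p = 0.0018) and was lower in 6 of 6 pairs of libraries of the same time. A set of 4 WT libraries (CT2, CT6, CT10 and CT14) stood apart from the other 8 libraries in several ribosomal protein pseudogenes, as described with Rps13 below. In tissue of many cell types, fewer cells of a type and less RNA per cell cannot be told apart. Summed lens markers ran from 34919 CPM in the WT library of CT22 to 60757 CPM in the cKO library of CT2, and 10 of 10 lens markers had higher fitted values in cKO, while 6 of 6 stroma markers and 8 of 8 eye muscle markers had lower ones. The part of tissue composition in the results below was not tested.

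The 88 genes together took 2.43% ± 0.0816 of all counts in WT (SD, n = 6 libraries) and 2.36% ± 0.0599 in cKO (n = 6). From CT2 to CT22 the WT libraries had shares of 2.31%, 2.46%, 2.45%, 2.37%, 2.48% and 2.53%. The cKO libraries had 2.33%, 2.32%, 2.29%, 2.39%, 2.45% and 2.39% in the same order. The WT library of CT22 was highest and the cKO library of CT10 lowest. The genotypes overlapped, with cKO lower in 4 of 6 pairs. Counting error was far below the largest steps (for WT at CT2, the 95% Wilson interval was 2.30% to 2.32%). Some smaller steps lay within it, as the intervals of WT at CT6 (2.45% to 2.47%) and at CT10 (2.44% to 2.46%) overlapped. Small-subunit genes gave 1.00% of counts in WT and 0.98% in cKO, and large-subunit genes gave 1.43% and 1.38%.

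**Figure D1:**
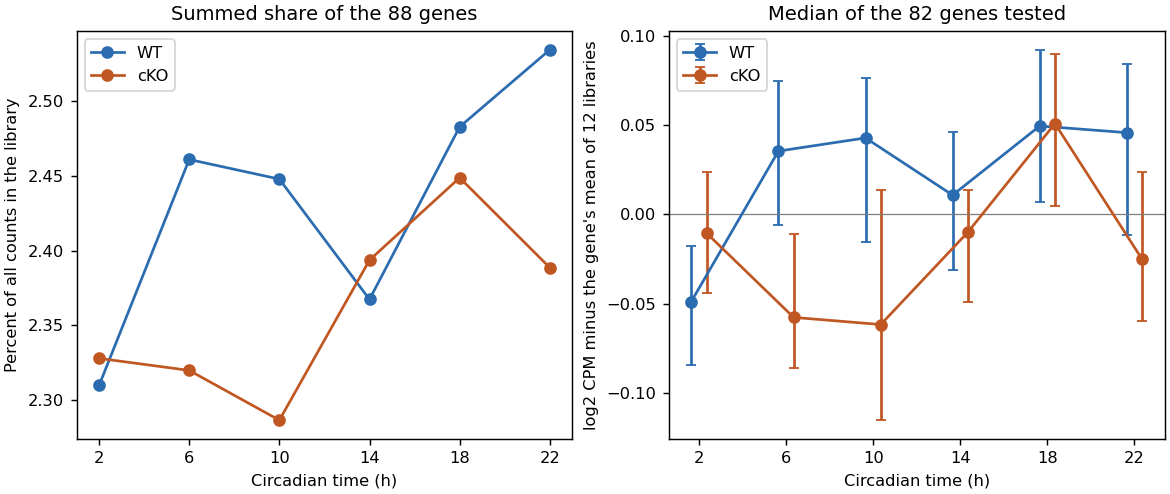
Left, the percent of each library's counts in the 88 ribosomal protein genes against circadian time in hours, 1 point per library (blue WT, orange cKO; the axis does not start at 0). Right, the median over the 82 genes tested of log2 CPM minus each gene's mean over the 12 libraries, with bars from the lower to the upper quartile of the genes; cKO lies lowest at CT6 and CT10, near -0.06, and both genotypes meet at CT18, near 0.05.

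Most members were abundant and steady. Per kilobase of annotated transcript, the acidic stalk protein gene Rplp1 was highest at 916 CPM, followed by Rps2 at 811, Rpl23a at 777, Rpl41 (which encodes a very short peptide) at 763, Rps15 at 748 and Rps14 at 696. Over the 12 libraries the coefficient of variation was 5.31% in the median member and 8.85% in the median other gene tested. Among genes with a mean of at least 1000 counts, where 73 members fall, the medians were 4.94% and 5.34% (2032 other genes), a smaller gap than over all genes tested. Rpl14 had the lowest coefficient of variation, 2.38%, and Rps7 the highest, 39.7%.

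The levels of some members depended strongly on the pseudogene copies, while the 6 highest per kilobase were the same with copies added. Copies were pseudogenes matching at least 80% of a member's coding sequence at 90% identity or more, or named after it; 838 were assigned, and 436 had a count. In 6 members more than 50% of the joint counts lay in the copies: Rpl12 with 95.8%, Rpl5 with 93.0%, Rpl27 with 90.7%, Rpl10 with 80.6%, Rpl27a with 57.9% and Rps12 with 53.8%. For Rpl10 and Rps12 nearly all of these counts lay in a copy assigned by name and not by sequence. These were Rpl10-ps3 (4656 of 4661 mean counts per library) and Rps12-ps3 (1621.5 of 1627). Rpl5 itself, which carries 5S rRNA into the large subunit, had 290 to 383 counts per library, while Gm15500, identical to it over the coding sequence, had 4155 to 5159. Rpl12, at the base of the stalk, had 143 to 202 counts against 3664 to 4412 for Gm10275. Among the 77 protein-coding members tested, with paralogs whose names end in l or l1 left out, Rpl12 counted alone was lowest at 13.3 CPM per kilobase, and the median was 392. With copies added, the SD of log2 level over these 77 genes fell from 1.11 to 0.60 and the median was 411. Rps20 was then lowest at 72.2 CPM per kilobase, with an annotated transcript of 3706 bases for a coding sequence of 357. The levels per kilobase thus also depend on the transcript chosen. Which locus gave the reads of a member and its copies cannot be told from gene counts. The sources used here do not give the aligner or how it treated reads that match several places.

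No member passed the test of genotype. Of the 88, 82 passed the filter on low counts. None of the 82 had an adjusted p below 0.05 in edgeR's quasi-likelihood test, where 0.139% of all 15134 genes tested passed, and DESeq2 and limma also called none. At an unadjusted p below 0.05, 9 members were lower in cKO and 3 were higher, against 2.91% and 2.98% of all genes. The fitted difference was below 0 in 67 members and above 0 in 15, against 50.1% of all genes below 0. The median over members was -0.04 (log2), and over all genes it was -0.00016. Small-subunit members were lower in 27 of 33 and large-subunit members in 40 of 49, with a median of -0.04 in each. In 71 of the 82 the difference was smaller than 0.1 in either direction. With copies added, 71 of 82 were lower and the median was -0.05. These members share libraries, so a shift of a few libraries moves many of them at once.

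The downward lean was uneven over the day. Within pairs of the same time, the median member difference (cKO minus WT, log2) was 0.02, -0.10, -0.09, -0.02, -0.01 and -0.06 from CT2 to CT22. At CT6 67 of 82 members were lower (50.1% of all genes) and at CT10 64 were lower (49.9% of all genes). At CT2 30 were lower (49.6% of all genes) and 52 were higher. Without both libraries of CT6 the number lower fell to 60. The libraries of CT18 and CT22 alone gave a median of -0.03.

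**Figure D2:**
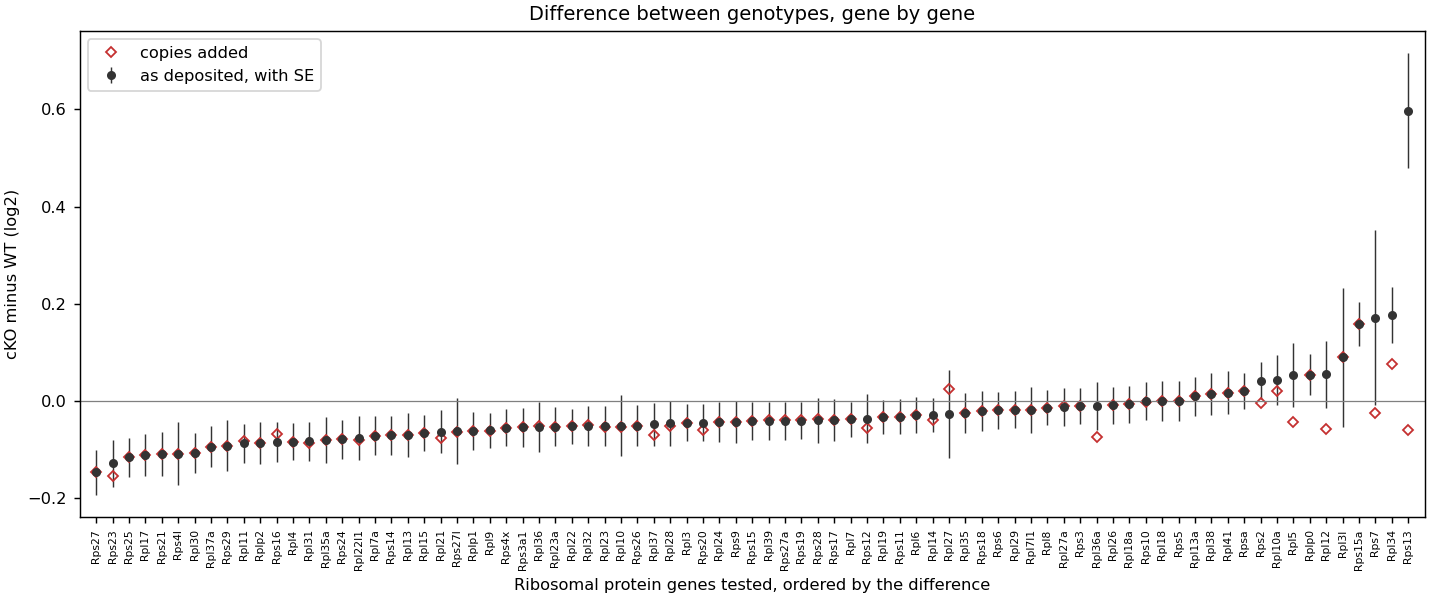
Fitted cKO minus WT difference (log2) of 81 of the 82 genes tested, ordered from lowest to highest; filled points with SE bars are counts as deposited and open diamonds are counts with the pseudogene copies added. Most points lie between -0.1 and 0, and the values of Rps13 and Rps7 drop from 0.60 and 0.17 to -0.06 and -0.02 when the copies are added.

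Among the members with the largest lower values, Rps27, a zinc-finger protein of the small subunit, ran from 161 to 197 CPM in WT (median 179) and from 151 to 181 in cKO (median 160). The groups overlapped, and the difference was -0.15 ± 0.05 (log2, SE; edgeR adjusted p = 0.541), lower in 5 of 6 pairs. Rps25, which some viral mRNAs need for initiation at internal entry sites, ran from 242 to 290 CPM in WT (median 272) and from 236 to 275 in cKO (median 243). It was lower in 6 of 6 pairs, with a difference of -0.12 ± 0.04 (edgeR adjusted p = 0.65), although the groups overlapped. Rps23, at the decoding centre, had -0.13 ± 0.05. Rpl17, near the mouth of the peptide exit tunnel, and Rps21 had -0.11 each, with overlapping groups.

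Rpl4, whose protein lines the exit tunnel, was the only member in which every cKO library lay below every WT library, a pattern seen in 0.126% of all genes. It ran from 731 to 794 CPM in WT (median 757) and from 693 to 730 in cKO (median 717). The difference was small, -0.08 ± 0.04 (log2, SE; edgeR adjusted p = 0.832). Rpl4 and Rps25 were the members lower in all 6 pairs, where 1.67% of all genes were; with copies added there were 6, namely these and Rpl9, Rpl14, Rpl15 and Rpl17.

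Rps13 had the largest higher value. From CT2 to CT22 it had 952, 1075, 1009, 1102, 2065 and 2010 counts in WT. In cKO it had 1942, 1893, 1898, 2025, 2073 and 1923 counts. The WT libraries of CT2 to CT14 were low, and those of CT18 and CT22 lay with the cKO libraries. The fitted difference was 0.60 ± 0.12 (log2, SE; edgeR adjusted p = 0.077), higher in 5 of 6 pairs.

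Its pseudogene Rps13-ps1 showed the mirror image. From CT2 to CT22 it had 954, 1097, 1142, 1050, 0 and 55 counts in WT, and in cKO it had 136 at CT2 and 0 in the other 5 libraries. The pseudogene passed the test of genotype (edgeR adjusted p = 0.000628), with a WT mean of 67.7 CPM and a cKO mean of 2.18 CPM. The sum of gene and pseudogene stayed within 1893 to 2172 counts in all 12 libraries. With copies added, Rps13 had 197 ± 9.19 CPM in WT and 189 ± 8.56 CPM in cKO (SD, n = 6 each), and its difference was -0.06 ± 0.04. Without the libraries of CT18 and CT22, Rps13 as deposited had a difference of 0.91 (edgeR adjusted p = 5.24e-08). That set was chosen after these counts were seen, so this p-value is no independent test. The libraries of CT18 and CT22 alone gave -0.01 for Rps13, and Rps13-ps1, with 0 to 55 counts there, was then too low to be tested.

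The same 4 WT libraries stood apart in other entries. Rpl34-ps1 had 81 to 167 counts in them and 0 or 1 in the other 8, and Rpl34, a large-subunit gene, had 1033 to 1177 counts in them and 1281 to 1475 elsewhere. Unlike Rps13, the sum of Rpl34 and Rpl34-ps1 still differed, with 1184 to 1258 counts in the 4 and 1281 to 1475 in the other 8. With copies added, the genotype difference of Rpl34 was 0.08 ± 0.04 (log2, SE). Rps2-ps10, the other -ps entry past the test of genotype (edgeR adjusted p = 0.00434), had 279 to 524 counts in the 4 and 73 to 107 elsewhere. In CT18 and CT22 alone, again a set chosen after the counts were seen, its difference was -0.15 ± 0.21 (edgeR adjusted p = 0.999). Rps15a, whose copies held only 1.83 counts on average, had 1784 to 2067 counts in the 4 and 2130 to 2440 in the other 8. A pair of WT libraries thus resembled cKO in these entries, and what set the 4 libraries apart was not tested.

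**Figure D3:**
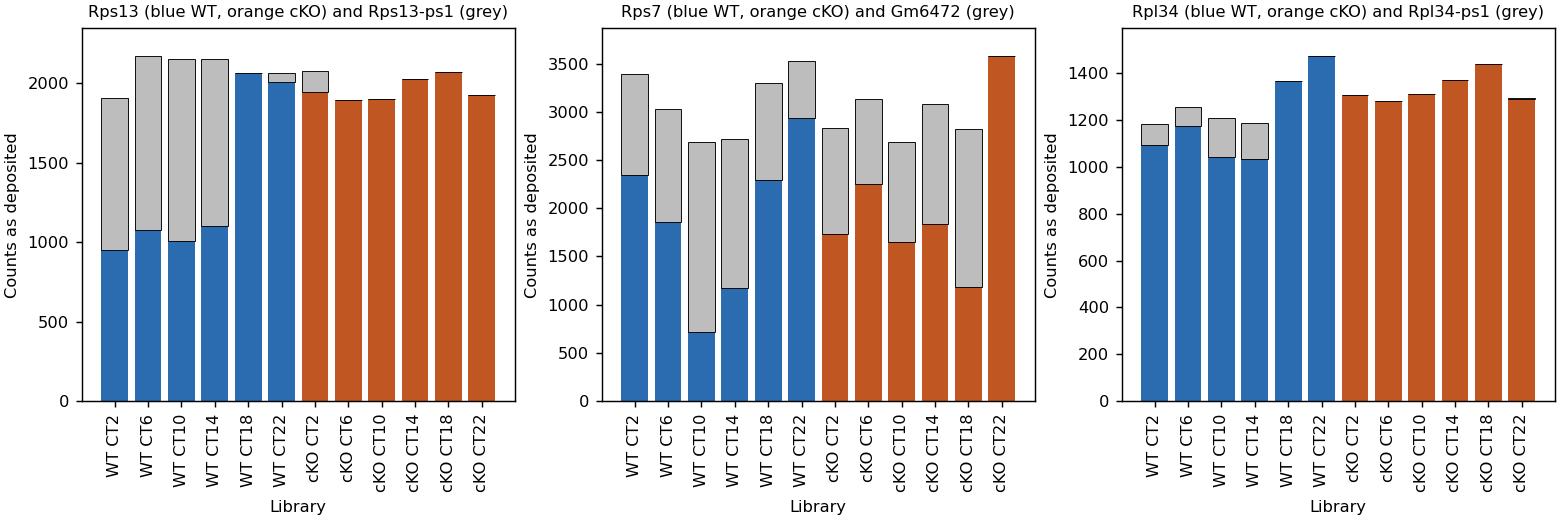
Deposited counts per library of Rps13, Rps7 and Rpl34 (blue WT, orange cKO), with the counts of the pseudogenes Rps13-ps1, Gm6472 and Rpl34-ps1 stacked on top in grey. The sum of Rps13 and its pseudogene stays between 1893 and 2172 while the gene alone spans 952 to 2073, and Rps7 spans 719 to 3580 against 2683 to 3580 for its sum. Rpl34 spans 1033 to 1475 against 1184 to 1475 for its sum.

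Rps7, which takes part in the assembly of the small subunit, varied most. It had 2347, 1857, 719, 1175, 2295 and 2933 counts in WT from CT2 to CT22, and 1732, 2254, 1652, 1835, 1188 and 3580 in cKO. Gm6472 had 1049, 1174, 1971, 1548, 999 and 589 counts in WT and 1101, 876, 1031, 1251, 1636 and 0 in cKO. The libraries low in one were high in the other, and in the cKO library of CT22 the gene held every count. Here the WT libraries of CT2 to CT14 did not separate from the rest. The genotype difference of Rps7 was 0.17 ± 0.18 as deposited and -0.02 ± 0.05 with copies added.

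The test for a 24 h rhythm common to both genotypes called 3 of 82 members, near the 3.46% of all genes tested; 17 members had an unadjusted p below 0.05, against 18.7% of all genes. The amplitude of the fitted curve is its rise from mean to peak on the log2 scale. Rps15a, a small-subunit gene, was lowest in WT at CT2 (171 CPM) and highest at CT18 (231), and in cKO lowest at CT10 (203) and highest at CT18 (230). Its fitted peak was at CT18.0 with an amplitude of 0.15 ± 0.03 (SE), a 1.23-fold range from trough to peak (edgeR adjusted p = 0.0230). In cKO, whose libraries did not stand apart in this gene, the amplitude was 0.08 at CT17.9 (adjusted p = 0.741). Without the 4 WT libraries its common rhythm had an amplitude of 0.09 (adjusted p = 0.5), and none of the 82 members was called. Without the WT libraries of CT18 and CT22 none was called either. Both sets were chosen after seeing the data, and fewer libraries make a weaker test. The loss of calls therefore cannot show which libraries the rhythm came from.

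Rps4l, annotated as a transcribed processed pseudogene and named after the X-linked Rps4x, ran from 32.9 to 44.9 CPM in WT and from 29.9 to 40.7 in cKO. The highest values were at CT6 in WT and CT10 in cKO, and the lowest were at CT22 in both. Its fitted peak was at CT8.0, with amplitude 0.20 ± 0.04 and a 1.32-fold range (edgeR adjusted p = 0.0359). The call was kept in 5 of the 12 fits that left out 1 library, where the adjusted p ran from 0.0167 to 0.0976.

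Rps23 was highest in WT at CT2 (253 CPM), CT6 (246) and CT22 (237) and lowest at CT18 (181). In cKO it was highest at CT6 (221) and lowest at CT18 (150). The fitted peak was at CT3.8, with amplitude 0.21 ± 0.04 and a 1.33-fold range (edgeR adjusted p = 0.0385). The call was kept in 4 of the 12 fits that left out 1 library, where the adjusted p ran from 0.00316 to 0.11. It was also the 1 member past the test for any difference between times (adjusted p = 0.0208), a test passed by 1.93% of all genes. Its pseudogene Rps23-ps1 had its fewest counts, 447, in the cKO library of CT18 and its most, 972, in the WT library of CT22. With copies added the rhythm had nearly the same size, amplitude 0.18 ± 0.05 with a 1.29-fold range and a peak at CT4.2, and an adjusted p of 0.0981.

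**Figure D4:**
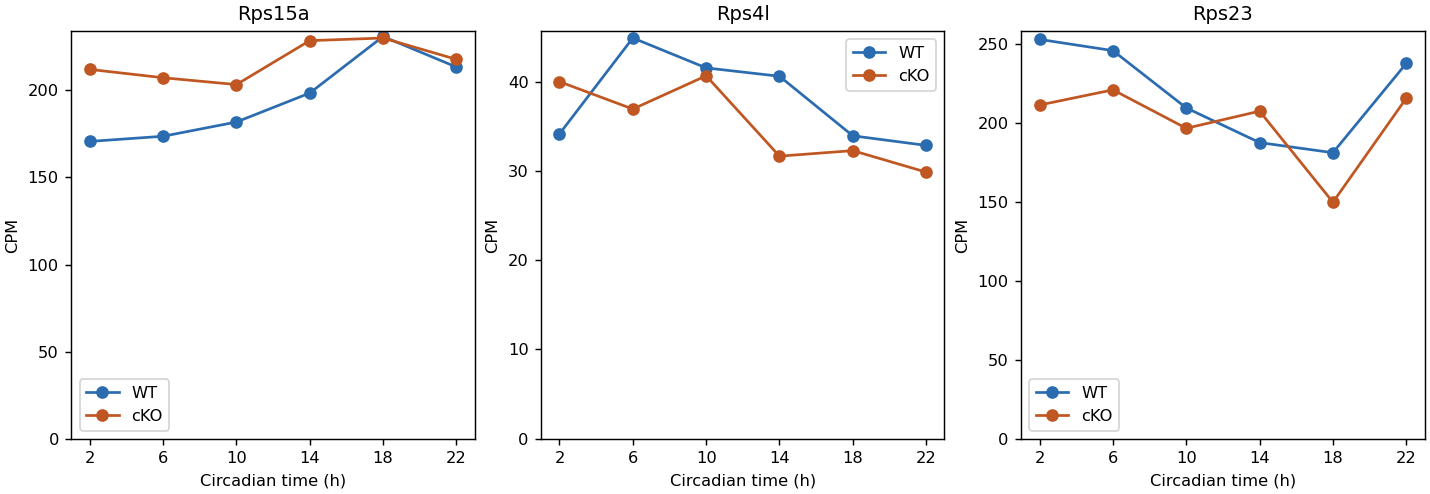
CPM of Rps15a, Rps4l and Rps23 against circadian time in hours, 1 point per library (blue WT, orange cKO), from 0 on the vertical axis. Rps15a and Rps4l peak at different times, near CT18 and CT8 in the fit, and Rps23 is lowest at CT18 in both genotypes.

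The next members by p were Rps7 (fitted range 2.23-fold, 1.23-fold with copies added; edgeR adjusted p = 0.0543 and 0.0644), Rps13 (adjusted p = 0.105), Rpl39 (0.106), Rpl12 (0.13) and Rpl36a (0.151). With copies added, the amplitude of Rps13 went from 0.31 to 0.03 (edgeR adjusted p = 0.779) and that of Rpl12 from 0.17 to 0.05 (adjusted p = 0.445). In WT alone Rps13 was the 1 member called, at CT19.6 with an amplitude of 0.57 ± 0.09 (adjusted p = 0.0223), where 0.363% of all genes were called, and with copies added no member was called. In cKO none was called (0.152% of all genes; 6 members at an unadjusted p below 0.05, against 8.41%), and DESeq2 and limma called none. None differed in rhythm between genotypes (0.0132% of all genes; 6 members at an unadjusted p below 0.05, against 2.58%), also with DESeq2 and limma.

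The fitted curves of most members were shallow, with peaks mostly from CT16 to before CT24. The median fitted range was 1.07-fold in members and 1.12-fold in all genes, and 59 of 82 stayed under 1.1-fold. The fitted peak fell from CT16 to before CT24 in 52 of 82 members (63.4%) and in 34.7% of all genes. It was 24 of 33 in the small subunit and 28 of 49 in the large subunit, and 54 of 82 with copies added. The cKO library of CT18 weighed most on this count: without it, 43 of 82 peaked then, and leaving out each other library gave 45 to 56. The members share libraries, and the WT library of CT18 also had the highest summed levels of stroma markers (1308 CPM) and red blood cell markers (506 CPM). The cKO library of CT18 had 734 CPM of stroma markers and the lowest sum of red blood cell markers, 116 CPM. The part of tissue composition in the lean was not tested.

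**Figure D5:**
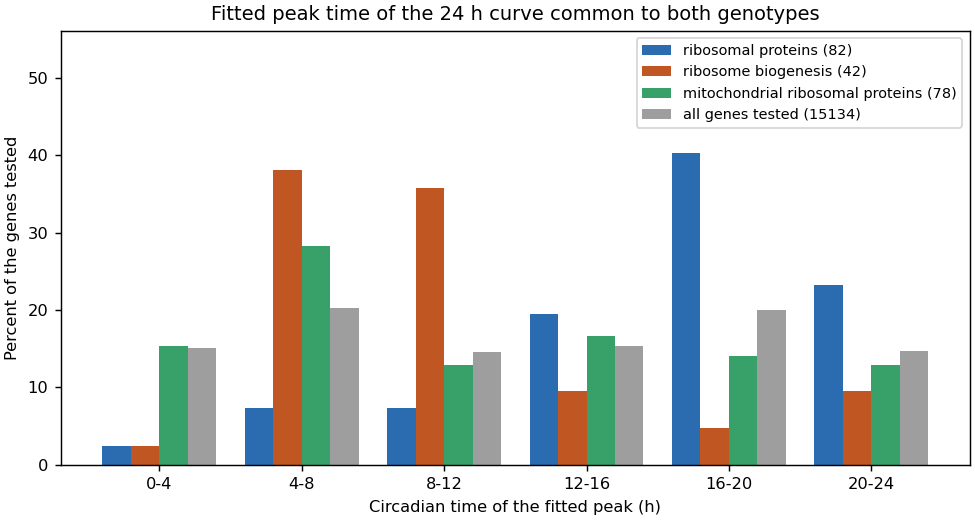
Percent of genes by the circadian time of the fitted 24 h peak in bins of 4 h, for the 82 ribosomal protein genes tested, 42 ribosome biogenesis genes, 78 mitochondrial ribosomal protein genes and all 15134 genes tested; every gene is counted whether or not its rhythm passed the test. The ribosomal protein genes lie mostly from CT12 to CT24, and the biogenesis genes mostly from CT4 to CT12.

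Of 42 genes tested that build ribosomes, 16 had fitted peaks from CT4 to CT8, 15 from CT8 to CT12 and 6 from CT16 to CT24. Of all 15134 genes, 3066 had fitted peaks from CT4 to CT8 and 2201 from CT8 to CT12. The 1 biogenesis gene called, where 3.46% of all genes were, was Utp20, a component of the machinery that processes small-subunit rRNA, with its peak at CT9.1 and a 1.43-fold range (edgeR adjusted p = 0.00745). None of the 20 genes of RNA polymerase I, which makes the rRNA, was called, and none of the 19 genes of mTOR and growth signalling. The 78 mitochondrial ribosomal protein genes tested had 21 fitted peaks from CT16 to CT24, no call, and a median genotype difference of -0.01, with 47 lower. Of 16 translation factors with TOP mRNAs, 16 had lower fitted values in cKO, against 50.1% of all genes, with a median of -0.05 and a range of -0.12 to -0.01. None was called in edgeR, where 0.139% of all genes were. At an unadjusted p below 0.05, 3 were lower, against 2.91% of all genes. Of the ribosome biogenesis genes, 29 of 42 had lower fitted values in cKO. The same held for 10 of 20 RNA polymerase I genes and 8 of 19 growth signalling genes. All these lists share the same libraries.

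Among members with known extra roles, the stalk genes, whose proteins recruit translation factors, had fitted differences of both signs. Rplp0 ran from 770 to 909 CPM in WT and from 831 to 885 in cKO, Rplp1 from 432 to 496 and from 424 to 474, and Rplp2 from 218 to 257 and from 212 to 258. Their differences were 0.05 ± 0.04, -0.06 ± 0.04 and -0.09 ± 0.04, with overlapping groups. Rpsa, a small-subunit protein also known as the laminin receptor, had 638 ± 19.9 CPM in WT and 648 ± 16.6 in cKO (SD, n = 6 each). Rps6, the substrate of S6 kinase, had 529 ± 20.1 and 522 ± 14.3 CPM. Rps19, mutated in Diamond-Blackfan anaemia in humans, had 239 ± 14.7 and 233 ± 13.2 CPM. None of these 3 passed any test.

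Rpl11, which with Rpl5 and 5S rRNA binds MDM2 and so restrains the breakdown of p53, ran from 267 to 298 CPM in WT and from 250 to 282 in cKO. It was lower in 5 of 6 pairs, with a difference of -0.09 ± 0.04 (edgeR adjusted p = 0.83) and overlapping groups. Rpl13a, which can leave the ribosome to silence inflammatory mRNAs in human monocytes, had 721 ± 42.0 and 726 ± 41.4 CPM. Rpl38, needed for skeletal patterning of mouse embryos, had 126 ± 7.63 and 127 ± 6.00 CPM. Rpl10, which joins late in assembly of the large subunit, had 108 ± 14.1 and 104 ± 16.4 CPM alone. It had 557 ± 28.7 and 536 ± 26.9 CPM with copies added, nearly all from Rpl10-ps3, assigned by name.

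Paralogs stood far below their parent genes per kilobase of transcript. Rpl3l, which replaces Rpl3 in striated muscle, had 5.07 CPM per kilobase against 509 for Rpl3. Its level was lowest in the cKO library of CT18 (5.05 CPM), where the summed eye muscle markers were also lowest (528 CPM). It was highest in the cKO library of CT6 (9.90 CPM), where those markers summed to 640 CPM, below their highest sum of 751 CPM in the cKO library of CT22. Whether muscle content moved it was not tested. Rpl22l1 had 75.9 against 334 for Rpl22, Rps27l, a target of p53, had 46.1 against 494 for Rps27, and Rpl7l1 had 35.9 against 475 for Rpl7. Rpl39l, known from male germ cells, had 2 to 13 counts per library, or 1.00 CPM per kilobase against 248 for Rpl39. Rpl10l, which takes over from Rpl10 in male meiosis, had 1 count in all 12 libraries. Rpl6l and Rps3a2 had 0 to 3 counts per library, Rps3a3 had 0 to 2 and Rps12l1 had 0 in every library. These 6 genes were not tested. Of the tested paralogs with these names, Rps4l alone passed a test.

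Components of the ribosome with names outside the rule were also measured. Fau, whose product is fused to a ubiquitin-like part and releases a small-subunit protein, had 57.6 ± 6.44 CPM in WT and 58.9 ± 6.48 in cKO (SD, n = 6 each). Rpl36al had 51.4 ± 3.78 and 51.8 ± 2.18 CPM, and Rack1, a scaffold on the small subunit, had 458 ± 15.5 and 453 ± 15.7. None of these 3 passed the test of genotype or of the common rhythm.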

How the data were processed

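RNA from whole eyes was measured in 12 libraries. The authors deposited 1 table of raw counts per gene; its values were whole numbers summing to nearly equal totals, and the sheet is called raw data per the file headers and name. The sources used here do not give the aligner, counting tool, strand setting, genome build or annotation. Of 32544 entries, 27 whose names a spreadsheet had turned into dates were left out (median 0.158% of counts). Members and gene lists were chosen with earlier results of these data known.

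Tests used edgeR 4.0.16 in R 4.3.3: filterByExpr (minimum count 10, total 15) kept 15134 genes, with TMM scaling, a prior count of 2 for log2 CPM and a biological coefficient of variation of 6.06%. Quasi-likelihood F tests compared genotypes beside a factor for circadian time (5 degrees of freedom left), fitted 24 h cosine and sine terms common to both genotypes (8) or within each (6), and tested time as a factor; p-values were adjusted by Benjamini-Hochberg over all genes tested, with a threshold of 0.05. Libraries are pools and the only replicates of a genotype are those of other times. The spread behind the p-values can therefore mix variation between pools with genotype differences that change over time. In the curve fits it can also hold time patterns that the curves miss. Libraries of the same time share the labelled time of collection, so time was kept as the block. Counting intervals and totals cover counting error only.

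Members were matched to GENCODE M21, and copies were sought with BLAST 2.17.0 from each coding sequence (80% of its length, 90% identity) or by name. Alternatives were DESeq2 1.42.0, limma 3.58.1, other scaling, no filter, pseudogene or copy counts added, and libraries left out; the copy sums, the sets without CT18 and CT22 (or with them alone) and the set without 4 WT libraries were chosen after seeing the data. Genes named are the 5 with the largest genotype difference in each direction, the 8 with the smallest p for the common rhythm, members past any test, the 6 highest per length, paralogs, the stalk and Rpsa, and members with known extra roles; Rpl4, Rps14, Rpl9, Rpl14, Rpl15, Rpl17, Rps25 and the copy-rich members were also named after their values were seen. A small number of single-gene values are not reported here.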

Additional observations from a re-analysis of the deposited data

Results flagged for a closer look

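In each genotype's 6 libraries, the highest and the lowest value of every tested member and of the summed share were compared with the rest of the group, giving 166 groups, and in 10 of them 1 library lay far from the other 5; 8 of these are given here. Chance gives about 1 in 20. For Rps23 the cKO library of CT18 was low at 150 CPM, with the next at 196 CPM, and this library also had the fewest counts of Rps23-ps1. In the same library Rps16 was high at 149.9 CPM (next 137). In the WT library of CT2, Rpl32 was low at 204 CPM (next 219). In the WT library of CT6, Rpl24 was high at 206 CPM (next 196) and Rps9 at 371 CPM (next 347). In the cKO libraries, Rpl28 was low at 271 CPM at CT6 (next 288), Rpl32 at 196 CPM at CT10 (next 212) and Rps19 at 208 CPM at CT2 (next 231).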

How the results depend on the processing

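Time is the block that pairs the libraries; without the replicate block the genotype test still called 0 members, with a median difference of -0.04. Over the 11 settings other than leaving out 1 time, the median genotype difference lay between -0.05 and -0.03, and leaving out 1 time at a time gave -0.05 to -0.03 as well. The number of members past the genotype test rose from 0 to 1 without the filter (Rps13), and ran from 0 to 1 with 1 time left out. It was 2 without CT18 and CT22 (Rps13 and Rpl34), a set chosen after seeing the data. For the common rhythm, leaving out 1 library gave 0 to 4 calls against 3, with 0 without the WT library of CT6, CT10 or CT18 or the cKO library of CT10, and 0 without the WT libraries of CT18 and CT22 or without those of CT2, CT6, CT10 and CT14. The common rhythm of Rps15a kept its call in 8 of the 12 fits that left out 1 library, that of Rps4l in 5 and that of Rps23 in 4. The WT rhythm of Rps13 could not be fitted without those 4 libraries, which leaves 2. In WT the 1 call became 2 without the filter (Rps13 and Rps7), 3 in DESeq2 (Rps13, Rps15a and Rps23) and 0 with pseudogenes or copies added. For any difference between times the 1 call became 3 without the filter (Rpl10, Rps23 and Rps7), 0 with pseudogenes or copies added, and 0 to 2 with 1 library left out. The tests in cKO and of the difference in rhythm called 0 members in all settings run. The summed share was 2.54% in WT and 2.46% in cKO without mitochondrially encoded genes in the total, 2.56% and 2.47% with pseudogenes, and 2.68% and 2.59% with copies.

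Among the 10 members whose genotype difference was recomputed under each alternative, sign changes were found in Rps13 (-0.060 with pseudogenes or copies added, -0.0067 in CT18 and CT22 alone), Rps7 (-0.025 with copies added, -0.29 in CT18 and CT22 alone, and -0.019 to 0.39 with 1 time left out, the lowest without CT10), Rpl34 (-0.037 in CT18 and CT22 alone) and Rpl3l (-0.058 to 0.18 with 1 time left out, the lowest without CT6). Over all 82 members tested, adding copies changed the sign of 6: Rps13, Rps7, Rpl12 (from 0.05 to -0.06), Rpl5 (from 0.05 to -0.04) and Rps2 (from 0.04 to -0.0037) became lower in cKO, and Rpl27 (from -0.03 to 0.02) became higher. The sums with copies change these members' counts by construction, and the cause of the other changes was not tested. With 1 pool per genotype and time, members with few counts such as Rpl39l and Rpl10l could not be tested.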
